A study of Homo sapiens with 5 samples.

Results

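The data described here are the ATF3 and p53 binding sites of 10 genes that control apoptosis, read from chromatin immunoprecipitation followed by sequencing (ChIP-seq) in HCT116, a human colon cancer cell line. The genes were BBC3, PMAIP1, BAX, FAS, TNFRSF10A, TNFRSF10B, TP53I3 and AEN, which promote apoptosis, and BCL2L1 and MCL1, which restrain it. They were chosen by name for their role in apoptosis, with earlier results of these data known, and are 10 of 20163 protein-coding genes annotated on the hg19 (GRCh37) build. A binding site was assigned to a gene when its peak overlapped the window from 20 kb upstream of the gene's 5′ end to the other end of the gene. Positions are given from that 5′ end, the gene start, with a minus sign for upstream. All 10 genes had at least 1 peak in some library, so none was left out, and the windows together held 90 peaks.

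Each of the 5 libraries stands for 1 condition, and there were no replicates. ATF3-Ctrl and ATF3-CPT came from ATF3-WT cells immunoprecipitated with an ATF3 antibody after DMSO or 1.5 µM camptothecin for 4 h. Camptothecin (CPT) is a topoisomerase I inhibitor that breaks DNA. ATF3-KO came from DMSO-treated ATF3 knockout cells with the same antibody. p53-CPT came from p53-WT cells given camptothecin, and p53-KO from p53 knockout cells given DMSO, both with a p53 antibody. The ATF3 knockout was made in this cell line by homologous recombination with an AAV vector, and the p53 knockout was an existing HCT116 line. Chromatin in every group was crosslinked with 1 mM DSG (a protein-to-protein crosslinker) for 45 min and 1% formaldehyde for 10 min. A site listed in p53-CPT and not in p53-KO differs in genotype and in treatment, and these cannot be told apart. The same holds for ATF3-CPT against ATF3-KO.

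Apoptosis runs along an intrinsic and an extrinsic route. In the intrinsic route BH3-only proteins such as PUMA (encoded by BBC3) and NOXA (PMAIP1) bind anti-apoptotic family members, PUMA both BCL-XL (BCL2L1) and MCL1 and NOXA mainly MCL1, which frees BAX to open the outer mitochondrial membrane. In the extrinsic route the death receptors FAS, TNFRSF10A and TNFRSF10B, the latter pair binding the ligand TRAIL, activate caspases from the cell surface. p53 is a DNA damage responsive activator whose known targets include most of the pro-apoptotic genes here, and ATF3 is a stress-induced factor of the ATF/CREB family that binds AP-1 and ATF/CRE sequences.

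The libraries held between 1984941 (p53-KO) and 15457013 (ATF3-CPT) tags, a tag being 1 aligned read. The peak lists held 33681 peaks for ATF3-Ctrl, 70231 for ATF3-CPT, 2149 for ATF3-KO, 9082 for p53-CPT and 7768 for p53-KO on chromosomes 1 to 22, X and Y. Peak height is the normalized tag count, the tags in the peak scaled to a library of 10000000 tags, so 1 tag is worth 0.647 units in ATF3-CPT and 3.155 units in p53-CPT. Of the p53-CPT peaks, 60.91% overlapped a p53-KO peak, and 3550 did not. A gene with no listed peak may still hold tags below the list's threshold, which was 9 tags in ATF3-Ctrl and ATF3-CPT, 11 in ATF3-KO, 7 in p53-CPT and 6 in p53-KO. Intervals are 95% exact Poisson intervals and cover counting error only, with each tag taken as independent. Heights were not compared between antibodies.

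The sequences under the p53 peaks show what the immunoprecipitated stretches carry. The p53 response element is a run of 20 bases made of 2 half-sites, and the best match within each peak was scored by its mismatches to that pattern. For the 8 p53-CPT peaks outside the TNFRSF10A, TNFRSF10B and TP53I3 windows, the best match is in capitals with 5 reference bases on each side, 5′ to 3′ on the strand of the gene, hg19:
BBC3 first element, chr19:47734572-47734601, minus strand, 3 mismatches: cgcgcCTGCAAGTCCTGACTTGTCCgcggc
BBC3 second element, chr19:47735820-47735849, minus strand, 2 mismatches: gcatgGGGTCTGCCCAGGCATGTCCatgcc
PMAIP1, chr18:57567038-57567067, plus strand, 3 mismatches: gtcggGAGCGTGTCCGGGCAGGTCGcgctc
BAX, chr19:49458465-49458494, plus strand, 2 mismatches: cccccGGGCAGGCCCGGGCTTGTCGcccgc
FAS, chr10:90751061-90751090, plus strand, 2 mismatches: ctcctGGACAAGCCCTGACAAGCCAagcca
AEN, chr15:89164532-89164561, plus strand, 2 mismatches: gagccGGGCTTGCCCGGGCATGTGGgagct
BCL2L1 first element, chr20:30266569-30266598, minus strand, 1 mismatch: acttgGGACTTGTCTGGACTAGTTGgaggc
BCL2L1 second element, chr20:30287230-30287259, minus strand, 2 mismatches: gccagAGGCATGTTCGGACTTAGCCagctg

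These 8 matches were centred at most 33 bp from the peak centre, and 7 of them within 14 bp of it. The match closest to the full pattern was the first BCL2L1 element, at an anti-apoptotic gene. Matches of this kind describe letters in the reference and were not tested for binding.

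The TP53I3 peak carried no such element within 3 mismatches. It covered a tandem repeat of 5-base units, a kind of sequence through which p53 is known to bind this gene. The reference holds 15 units in 75 bases, chr2:24307213-24307287, and its first 6 units on the minus strand are shown, with every base in capitals because each belongs to the repeat. The repeat was searched for after the peak values had been seen:
TP53I3 repeat, chr2:24307258-24307287: TGCCCTGTCCTGTCCTGCCCTGCCCTGTCC

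p53 peaks were listed in the windows of 9 of the 10 genes, all except MCL1, and 21.8% of all protein-coding gene windows held a p53-CPT peak. The 11 p53-CPT peaks gave 2.56 peaks per 100 kb of window, against 0.341 over all genes. The median window was 35.4 kb for the 10 genes and 47.2 kb over all genes. Each window holds the same 20 kb upstream, so a density depends on window length, for which it was not adjusted. All 8 pro-apoptotic genes had a p53-CPT peak centre within 2 kb of the gene start, which 2.89% of protein-coding genes had. Neither anti-apoptotic gene had one there, since both BCL2L1 peaks lay deep in intron 2. With 8 and 2 genes chosen by name the contrast is a description and was not tested.

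Heights fell into a tall and a low group. BBC3 and TNFRSF10B held the tallest p53-CPT peaks. The BBC3 peak at 1423 bp, chr19:47734441-47734759, had 217.7 units (169.4 to 275.5; 69 tags) and lay at -144 bp from the start of the canonical BBC3 transcript. A second BBC3 peak at 191 bp, chr19:47735673-47735991, had 119.9 units (84.8 to 164.5). Neither BBC3 peak was listed in p53-KO.

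BAX, the pore-forming effector, had a p53-CPT peak of 126.2 units (90.2 to 171.8) in intron 1 at 411 bp, chr19:49458324-49458642. PMAIP1 had a low peak of 34.7 units (17.3 to 62.1; 11 tags) at -177 bp, chr18:57566892-57567210. The intervals of the BAX and PMAIP1 peaks did not overlap, and of BBC3, BAX and PMAIP1 the NOXA gene carried the lowest p53 peak.

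The death receptors differed in the same way. TNFRSF10B had 217.7 units (169.4 to 275.5) in intron 1 at 390 bp, chr8:22925995-22926313, and TNFRSF10A had 34.7 units (17.3 to 62.1) in intron 1 at 462 bp, chr8:23081994-23082312. FAS had 47.3 units (26.5 to 78.1) at 694 bp within the gene, chr10:90750949-90751267. The FAS peak also lay 12 bp from the annotated 5′ end of ACTA2, which encodes smooth muscle actin and overlaps FAS, so the peak cannot be assigned to FAS alone. The intervals of FAS and TNFRSF10A overlapped each other and lay below that of TNFRSF10B.

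AEN, a p53-induced exonuclease, had 183.0 units (138.9 to 236.5) at -27 bp, chr15:89164382-89164700. TP53I3, an oxidoreductase linked to reactive oxygen, had 37.9 units (19.6 to 66.1; 12 tags) in exon 1 at 1472 bp, chr2:24307100-24307418. TP53I3 was also the only one of the 10 genes with a p53-KO peak, of 70.5 units (38.6 to 118.3; 14 tags) over the same repeat, chr2:24307093-24307403. The CPT and KO intervals overlapped, so the p53-CPT signal at TP53I3 was not above the signal in cells without p53. Of all protein-coding gene windows, 17.5% held a p53-KO peak.

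Among the anti-apoptotic genes, BCL2L1 had p53-CPT peaks of 129.3 units (92.8 to 175.5) at 24539 bp, chr20:30287094-30287412, and of 50.5 units (28.9 to 82.0) at 45217 bp, chr20:30266416-30266734. Both lay in intron 2, the first was about as tall as the BAX peak, and neither was listed in p53-KO. The lower one had another gene start, that of COX4I2, nearer than that of BCL2L1, at 40860 bp.

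**Figure D1:**
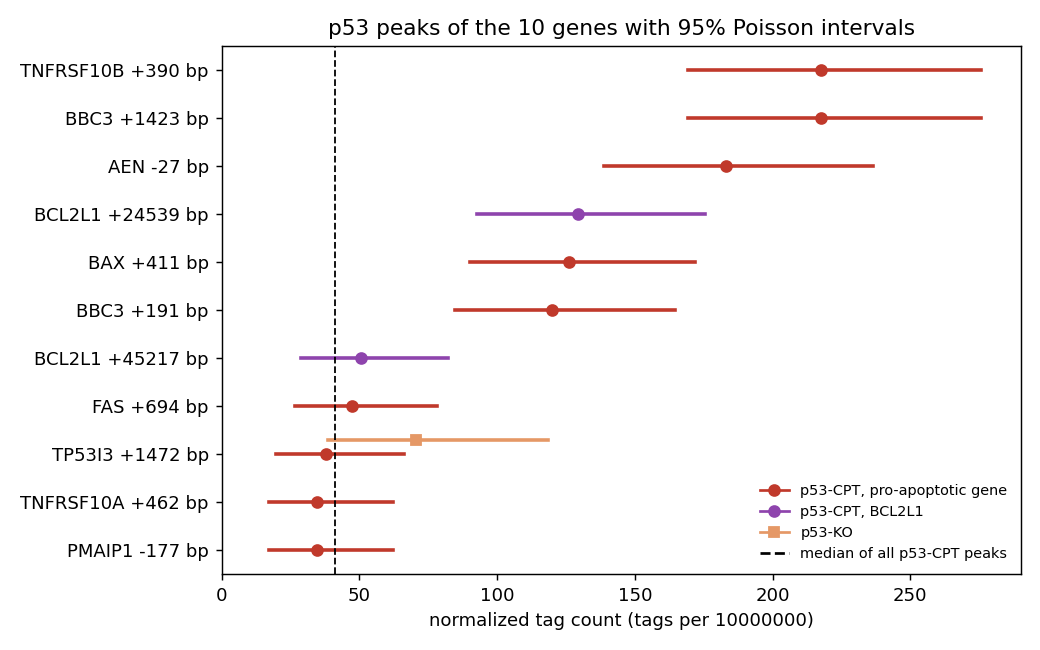
Normalized tag count (x axis, tags per 10000000) of the 11 p53-CPT peaks in the 10 gene windows, with 95% Poisson intervals as bars, and of the p53-KO peak at TP53I3 (square). The 6 peaks of TNFRSF10B, BBC3, AEN, BAX and the taller BCL2L1 site lie between 119.9 and 217.7 units, and the other 5 lie between 34.7 and 50.5 units, around the dashed median of all p53-CPT peaks at 41.0.

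What absence from p53-KO can show depends on the height, because p53-KO was the shallowest library. The 69 tags of the tall BBC3 peak would be 43.2 tags at p53-KO depth, well over its threshold of 6 tags, whereas the 11 tags of PMAIP1 and of TNFRSF10A would each be 6.9 tags. Among the 3550 p53-CPT peaks that overlapped no p53-KO peak, whose median was 31.5 units, the tall BBC3 and TNFRSF10B peaks shared rank 120, AEN held rank 157 and the taller BCL2L1 peak rank 260. FAS stood at rank 939, and PMAIP1 and TNFRSF10A shared rank 1426.

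A p53 element with at most 3 mismatches was found in 9 of the 11 member peaks, in 20.26% of all p53-CPT peaks and in 44.59% of those not listed in p53-KO. Equally long stretches 1000 bases to the side of p53-CPT peaks held one in 7.14% of cases. With at most 2 mismatches the counts were 7 of 11 member peaks, 12.88% of all p53-CPT peaks and 0.7% of the stretches beside them. TNFRSF10A, with 4 mismatches, and TP53I3, with 5, were the exceptions at 3 mismatches.

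ATF3 peaks were listed at the 10 genes before and after camptothecin. All 10 windows held an ATF3-Ctrl peak and all 10 an ATF3-CPT peak, where 65.2% and 81.0% of protein-coding gene windows did. Without the peaks that overlapped an ATF3-KO peak, 9 of the 10 genes remained in each library, since the only ATF3 site of BAX was also listed in ATF3-KO. The 65.2% and 81.0% include such peaks and were not recomputed without them. Over the whole lists, 5.23% of ATF3-Ctrl and 2.53% of ATF3-CPT peaks overlapped an ATF3-KO peak. The ATF3-Ctrl list had 28 peaks in these windows, 6.52 per 100 kb against 1.78 over all genes. The ATF3-CPT list had 48, or 11.2 per 100 kb against 3.58. These densities were likewise not adjusted for the shorter windows of the 10 genes. Within 2 kb of the gene start, all 10 genes had an ATF3-Ctrl peak centre and 9 of 10 an ATF3-CPT one, the exception being PMAIP1, beside 35.7% and 50.3% of protein-coding genes.

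**Figure D2:**
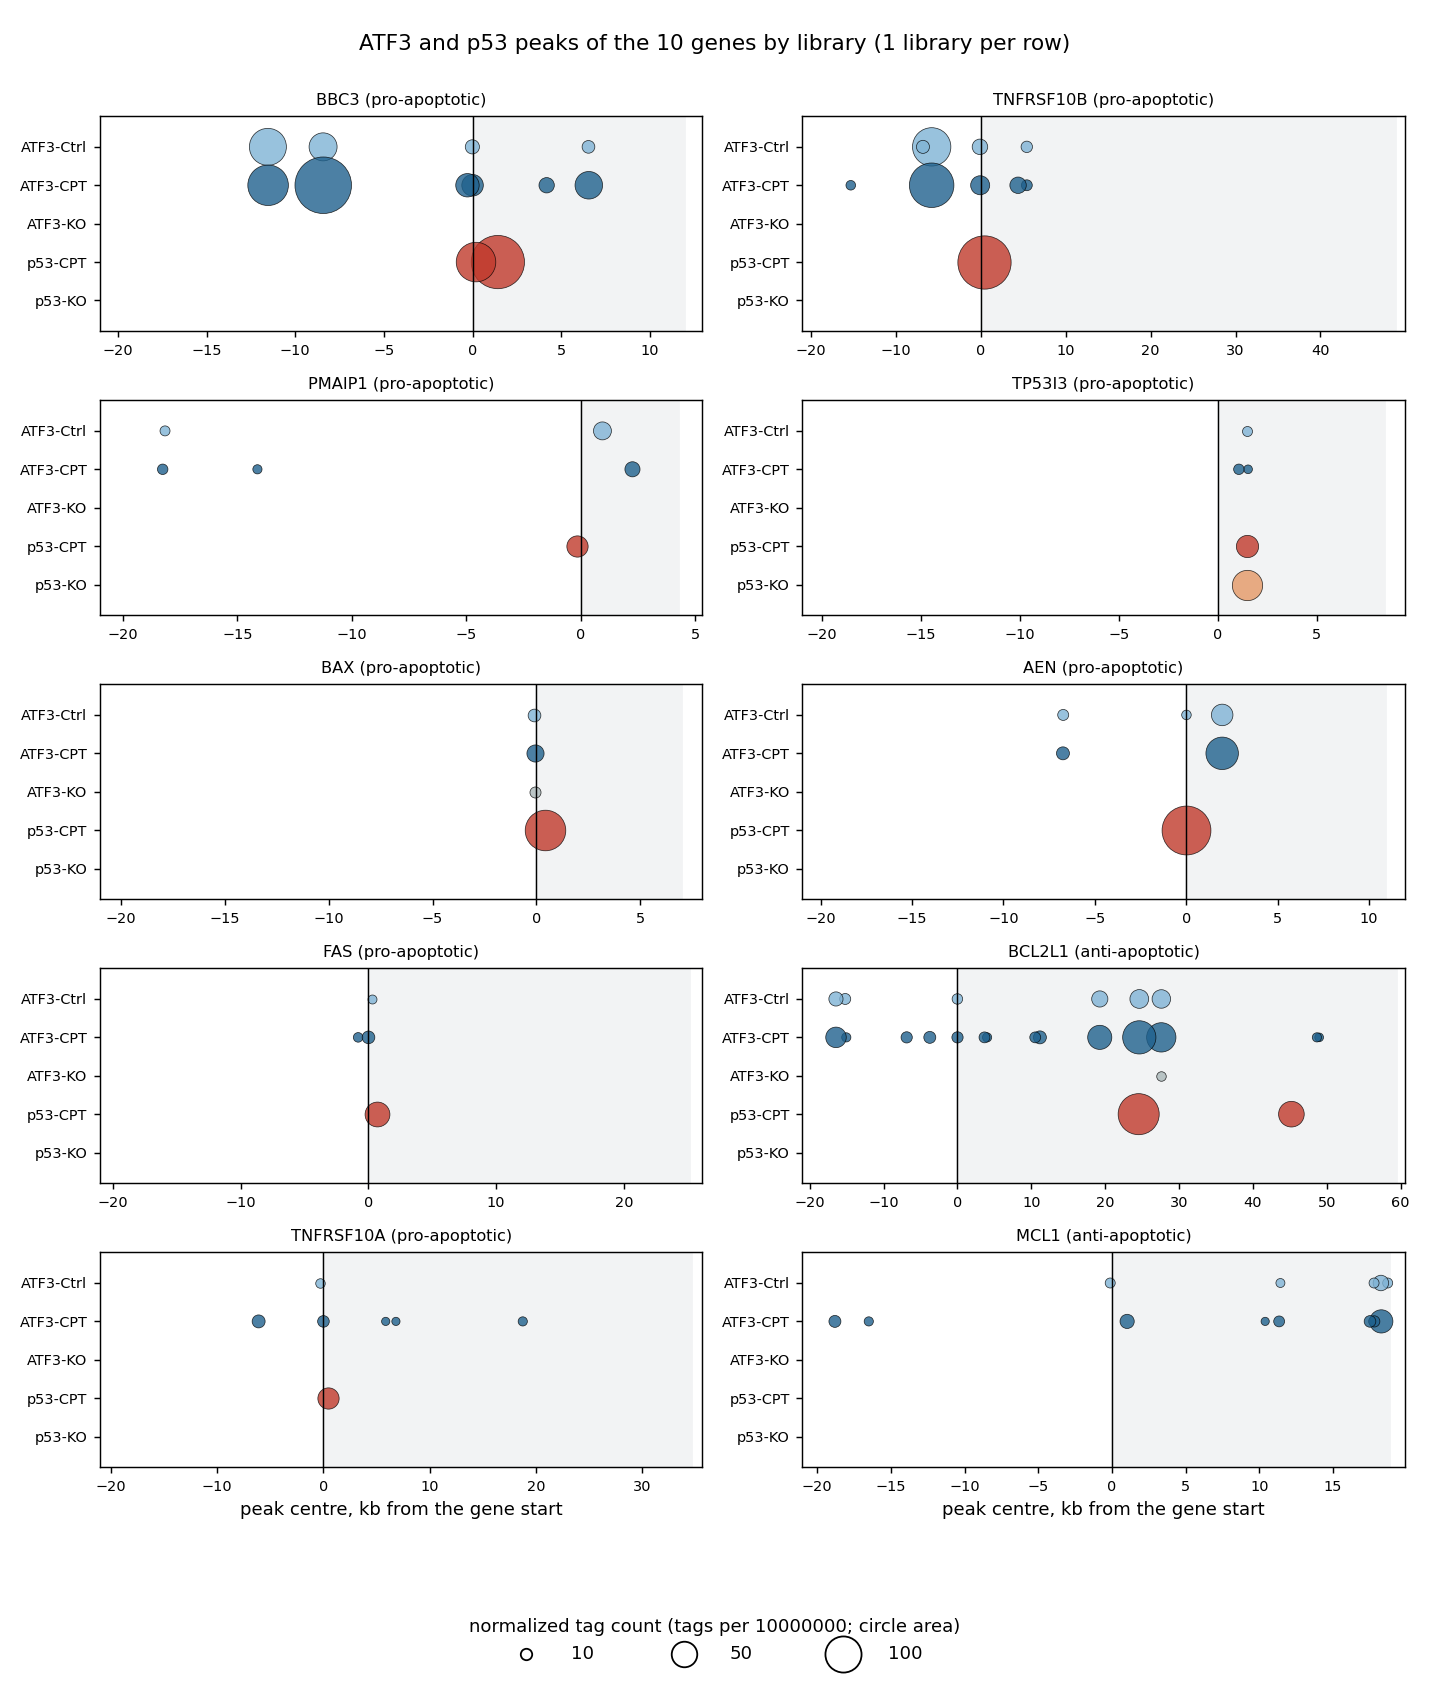
Peak centres (x axis, kb from the gene start, with the gene body shaded) in each of the 5 libraries (rows) for the 10 genes, with circle area in proportion to the normalized tag count in tags per 10000000. Every pro-apoptotic gene has a p53-CPT peak within 2 kb of its start, the BCL2L1 p53-CPT peaks lie at 24539 and 45217 bp, and MCL1 has ATF3 peaks only.

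ATF3 signal was heaviest at BBC3. Summed over its window, BBC3 had 193.0 units in ATF3-Ctrl and 525.4 units in ATF3-CPT, rank 189 and rank 80 of 20163 genes. Most of it lay upstream of the gene, at sites far from the p53 peaks. The site at -8429 bp rose from 60.2 units (47.6 to 75.2) in ATF3-Ctrl to 245.2 units (221.1 to 271.2) in ATF3-CPT, where it was peak 41 of 70231 by height. A neighbouring site at -11540 bp was already at 105.0 units (88.1 to 124.2) and reached 126.2 units (109.1 to 145.2), so that the order of this pair turned around after camptothecin. No ATF3-KO peak was listed in the BBC3 window.

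Other BBC3 sites were lower. At 6530 bp in intron 3, ATF3 rose from 12.4 units (7.1 to 20.1) to 58.2 units (46.8 to 71.6). At the gene start itself the heights were 15.4 units (9.4 to 23.9) and 35.6 units (26.8 to 46.3). A further site at -291 bp was listed in ATF3-CPT only, at 42.1 units (32.5 to 53.6), and was the tallest such peak in the 10 windows.

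The BBC3 sites are shown because they include the largest ATF3 changes in these windows and because their letters differ. The AP-1 core is TGACTCA or TGAGTCA and the ATF/CRE core is TGACGTCA, searched on both strands. The sites in intron 3 and at the gene start hold the AP-1 core, while those at -291 and -8429 bp hold an ATF/CRE word with 1 base changed, TGACATCA or its complement TGATGTCA. The tall site at -11540 bp and the ATF3-CPT site at 4173 bp hold neither a core nor the changed word. That word was chosen after the sequences had been read. The core or word is in capitals, on the minus strand of hg19:
BBC3 intron 3, chr19:47729446-47729504: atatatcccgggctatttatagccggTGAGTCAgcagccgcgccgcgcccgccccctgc
BBC3 gene start, chr19:47736020-47736048: gcactggaaggTGAGTCActctggtgagg
BBC3 near -291 bp, chr19:47736284-47736343: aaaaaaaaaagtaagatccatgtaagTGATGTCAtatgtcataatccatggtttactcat
BBC3 near -8429 bp, chr19:47744445-47744504: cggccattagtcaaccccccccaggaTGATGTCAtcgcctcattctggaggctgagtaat

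PMAIP1 differed between the ATF3 libraries at its tallest site and not in its summed signal. Its tallest ATF3 site, at 948 bp in intron 1, chr18:57568113-57568239, had 24.7 units (16.9 to 34.9; 32 tags) in ATF3-Ctrl and no overlapping peak in ATF3-CPT. At the same level the deeper ATF3-CPT library would hold 38.2 tags there, over its threshold of 9 tags. The nearest ATF3-CPT peak, at 2260 bp, had 17.5 units (11.5 to 25.4) and was 1312 bp away. The tags under unlisted positions are not in the lists, so the size of the difference at 948 bp could not be given. PMAIP1 was at 32.4 units in total in each ATF3 library.

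BAX had a promoter ATF3 site at -92 bp with 12.4 units (7.1 to 20.1) in ATF3-Ctrl and 22.6 units (15.8 to 31.5) in ATF3-CPT. The same site was listed in ATF3-KO at 9.4 units (4.8 to 16.4), and this interval overlapped both others. The p53-CPT peak of BAX was 459 bp from the ATF3-CPT peak and did not overlap it.

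At the death receptors, ATF3 was tall only at TNFRSF10B. Its site at -5774 bp had 112.8 units (95.2 to 132.6) in ATF3-Ctrl and 152.0 units (133.2 to 172.8) in ATF3-CPT, where it was peak 195 of 70231, and its site at -90 bp had 18.5 and 27.8 units. The ATF3 peaks of FAS ranged from 6.2 to 12.3 units over both libraries. Those of TNFRSF10A ranged from 5.2 to 12.9 units, with 1 site in ATF3-Ctrl and 5 in ATF3-CPT. Heights of 5.2 units in ATF3-CPT rest on 8 tags.

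AEN had its ATF3 site at 1968 bp in intron 1, with 35.5 units (26 to 47.4) in ATF3-Ctrl and 80.9 units (67.3 to 96.4) in ATF3-CPT. A weak ATF3-Ctrl peak at 13 bp, with 7.0 units (3.2 to 13.2), sat inside the p53-CPT peak and was not listed in ATF3-CPT. TP53I3 had the weakest ATF3 signal of the 10 genes after camptothecin, 14.2 units in all. The AEN intron site is printed because it holds the AP-1 core more than once, 2 copies in 1 peak, on the plus strand of hg19, with the cores in capitals:
AEN intron 1, chr15:89166499-89166560: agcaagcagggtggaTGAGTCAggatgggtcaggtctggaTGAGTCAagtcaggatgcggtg

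BCL2L1 carried the most ATF3 sites, 6 in ATF3-Ctrl and 14 in ATF3-CPT over a window of 79.5 kb, and its summed signal was 106.6 and 314.5 units. A group of 3 sites in intron 2 was the tallest. The site at 24623 bp had 27.0 units (18.8 to 37.6) in ATF3-Ctrl and 84.8 units (70.9 to 100.6) in ATF3-CPT. The site at 27607 bp had 26.3 units (18.2 to 36.7) and 66.0 units (53.8 to 80.1), and the site at 19272 bp had 20.1 units (13.1 to 29.4) and 44.6 units (34.7 to 56.5). The site at 27607 bp was also listed in ATF3-KO, at 7.0 units (3.2 to 13.3), below both other intervals. The promoter of BCL2L1 was low by comparison, with 8.5 units (4.2 to 15.2) and 9.7 units (5.4 to 16) at -7 bp. Part of the upstream signal lay nearer to another gene, TPX2, whose start was 1168 bp from the site at -16450 bp.

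MCL1 had 5 ATF3-Ctrl and 8 ATF3-CPT peaks and no p53 peak. Its tallest site, at 18240 bp, rose from 18.5 units (11.9 to 27.6) to 41.4 units (31.9 to 52.9). That site lies beyond the end of the canonical MCL1 transcript, inside the longer gene record of the annotation. Near the start, ATF3-Ctrl had 7.7 units (3.7 to 14.2) at -119 bp, and ATF3-CPT had 15.5 units (9.9 to 23.1) in intron 1 at 1028 bp, with no peak of the other library overlapping either. The intron site and the only exact ATF/CRE core among the ATF3-CPT peaks of the 10 genes, at 17787 bp, read as follows on the minus strand of hg19, with the cores in capitals:
MCL1 intron 1, chr1:150551156-150551184: tattctggccaTGAGTCAttgtttccgcc
MCL1 gene record, chr1:150534422-150534451: ctgccctgggcTGACGTCAgttttatcttc

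Which ATF3 sites changed with camptothecin was asked at the sites listed in both ATF3 libraries. Tags in the 2 libraries were compared by an exact two-sided binomial test given the library totals, with Benjamini-Hochberg adjustment over all 26906 such sites, a test that compares these libraries and not the treatments. The whole set moved up, with a median of 0.85 on the log2 scale, or 1.8-fold. In it, 44.2% of sites were called higher in ATF3-CPT and 2.46% lower at an adjusted p under 0.05. The share of all tags that lay in peaks was 5.6% in ATF3-Ctrl and 12.76% in ATF3-CPT. With 1 library each, a difference in immunoprecipitation between the libraries cannot be told apart from an effect of camptothecin. Of the 20 shared sites in the 10 windows, 10 were called higher and 0 lower, with a median log2 change of 0.73. The pro-apoptotic genes had 5 of 12 sites higher (median 0.53) and the anti-apoptotic genes 5 of 8 (median 1.11). The members' share was near that of all shared sites.

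By normalized tags, the largest changes were at BBC3. The intron 3 site rose 4.71-fold (log2 2.24 ± 0.39, counting SE; adjusted p = 1.51e-09, exact binomial test), and the -8429 bp site rose 4.07-fold (log2 2.03 ± 0.18; adjusted p = 1.62e-34, exact binomial test). The BCL2L1 site at 24623 bp followed, at 3.14-fold (log2 1.65 ± 0.28; adjusted p = 1.92e-09, exact binomial test). By the deposited score, which rests on at most 1 tag per position, this order changed. At some peaks the score exceeded the tags, as at TNFRSF10B -63 bp in ATF3-CPT (46 against 43). It is therefore not simply the same tags with repeats removed. The -8429 bp site had scores of 64 and 167, beside 78 and 379 tags, and a log2 change of 1.13. That was below BBC3 intron 3 (1.92), the BCL2L1 sites at 24623 bp (1.43), 19272 bp (1.20) and 27607 bp (1.15) and the BBC3 gene start (1.17). The SE and adjusted p of each fold change take every tag as independent and do not allow for such repeated positions. AEN at 1968 bp rose 2.28-fold (adjusted p = 6.02e-06, exact binomial test). BAX, at 1.83-fold, was not called (adjusted p = 0.0935, exact binomial test).

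Set against the median change of all shared sites, 7.72% of sites were called higher than that median and 10.2% lower. On this scale 3 member sites were higher, the BBC3 sites at 6530 and -8429 bp (adjusted p = 0.0021 and 1.54e-10, exact binomial test) and the BCL2L1 site at 24623 bp (adjusted p = 0.0202). Lower than the median change were 2 sites, those that were tallest in ATF3-Ctrl. BBC3 at -11540 bp had a relative log2 change of -0.59 (adjusted p = 0.00454, exact binomial test), and TNFRSF10B at -5774 bp one of -0.42 (adjusted p = 0.0417). The other 15 sites did not pass the test on the relative scale, which does not show that they moved alike.

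**Figure D3:**
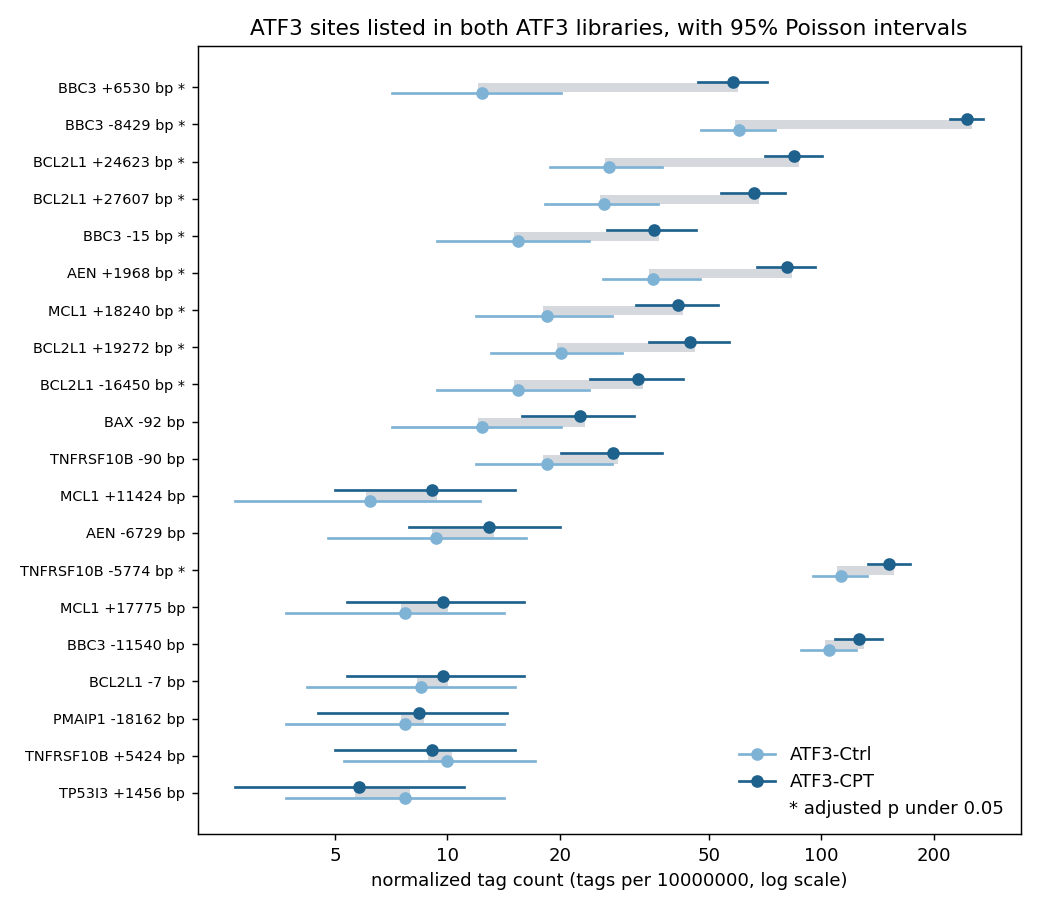
Normalized tag count (x axis, tags per 10000000, log scale) in ATF3-Ctrl and ATF3-CPT at the 20 ATF3 sites listed in both libraries, ordered by change, with 95% Poisson intervals as thin bars. The 10 sites with a star passed an adjusted p under 0.05, led by the BBC3 sites at 6530 and -8429 bp, while the tall sites TNFRSF10B at -5774 bp and BBC3 at -11540 bp had CPT to Ctrl ratios of 1.35 and 1.2.

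ATF3 sites that were listed once are described by their heights. Of the 28 ATF3-Ctrl peaks, 8 had no ATF3-CPT partner, and PMAIP1 at 948 bp was the tallest of them. The share with a partner was 71.4%, against 79.88% of all ATF3-Ctrl peaks. Of the 48 ATF3-CPT peaks, 28 had no ATF3-Ctrl partner, 14 at pro-apoptotic and 14 at anti-apoptotic genes. Here the share with a partner was 41.7%, near the 38.31% of all ATF3-CPT peaks. The 28 peaks without a partner had a median of 9.1 units, against 33.95 units for the ATF3-CPT peaks with a partner. At the same level, 18 of the 28 would hold at least the 9 tags of the ATF3-Ctrl threshold, and the other 10 would stay under it. That threshold equalled the lowest deposited score of the list, 9, while the tags of listed ATF3-Ctrl peaks went down to 7. The split is therefore approximate, and for the 10 absence from ATF3-Ctrl does not establish a lower level. The 5 that would hold 18 tags or more, double that threshold, were at BBC3 (2 sites), TNFRSF10B, PMAIP1 and MCL1.

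Most p53 peaks of these genes overlapped no ATF3-CPT peak. A p53-CPT peak overlapped an ATF3-CPT peak at 3 of the 10 genes, BBC3, TP53I3 and BCL2L1, beside 3.37% of protein-coding gene windows with such a site. By peaks, 3 of 11 p53-CPT peaks overlapped, against 10.16% of all p53-CPT peaks. Without the TP53I3 site, which was also in p53-KO, the count was 2 of 10, near the 18.76% of all p53-CPT peaks not in p53-KO. At BBC3 the peaks shared 27 bp at their edges, with centres 195 bp apart. At TP53I3 they lay 50 bp apart, over the repeat that was also listed in p53-KO. At BCL2L1 the whole ATF3 peak, of 125 bp, fell inside the p53 peak, with centres 82 bp apart. An ATF3-Ctrl peak also overlapped the p53-CPT peak at all 3 genes, with 15.4 units at BBC3, 7.7 at TP53I3 and 27.0 at BCL2L1. By distance, 6 of the 11 p53-CPT peaks had an ATF3-CPT centre within 500 bp, and the median distance was 459 bp. These distances were not taken over all p53-CPT peaks, so they show no closeness particular to the 10 genes. An ATF3-CPT peak centre lay within 2 kb of the start of 50.3% of protein-coding genes.

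The shared BCL2L1 site in intron 2 was thus the tallest of the 3 for ATF3 after camptothecin, at 84.8 units against 35.6 at BBC3 and 5.8 at TP53I3. The stretch is printed to show the p53 element and the changed ATF/CRE word together, both in capitals, with 63 bases between them, on the minus strand of hg19:
BCL2L1 intron 2, chr20:30287154-30287264: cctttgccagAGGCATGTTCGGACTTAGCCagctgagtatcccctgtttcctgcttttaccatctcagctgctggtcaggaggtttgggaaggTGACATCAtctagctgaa

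Either exact ATF3 core was in 14 of the 48 ATF3-CPT peaks of these genes, 13 with AP-1 and 1 with ATF/CRE, and in 6 of the 28 ATF3-Ctrl peaks. Over whole lists the shares were 41.88% and 32.85%, and stretches 1000 bases to the side held a core in 2.14% and 2.08%. The changed ATF/CRE word was in 5 of the 48, at BBC3 (2 sites), PMAIP1, FAS and BCL2L1, and in 4.87% of all ATF3-CPT peaks against 0.52% beside them. None of the 11 p53-CPT peaks held an exact ATF3 core, which 5.8% of all p53-CPT peaks did.

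Knockout lists touched the 10 windows at 3 places. ATF3-KO had peaks at BAX and BCL2L1, 2 of 10 genes beside 11.4% of protein-coding gene windows, and p53-KO had its peak at TP53I3. At BAX and TP53I3 the wild-type and knockout intervals overlapped, and at BCL2L1 they did not.

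Pro- and anti-apoptotic genes were set side by side by density and position. ATF3-CPT peaks were at 8.35 per 100 kb over the 8 pro-apoptotic windows and at 18.6 over the 2 anti-apoptotic ones. For ATF3-Ctrl the densities were 5.46 and 9.29, and for p53-CPT 2.89 and 1.69. MCL1, at 20.6, and BBC3, at 18.78, had the densest ATF3-CPT peaks of the 10, and BAX, at 3.71, the sparsest. With windows that end at the canonical transcript, chosen after seeing the data, MCL1 kept 3 of its 8 peaks, at 12 per 100 kb, below BBC3 at 19.8 and BCL2L1 at 17.9. The densities were then 8.42 over the pro-apoptotic and 16.4 over the anti-apoptotic windows.

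A wider list of 39 other apoptosis genes, which held none of the members, was compared in the same way. p53-CPT peaks were listed at 7 of 26 pro-apoptotic genes (26.9%) and at 4 of 13 anti-apoptotic genes (30.8%), beside 21.8% of all protein-coding gene windows. Counted by window, these shares were near that of all genes. By density the wider sides had 0.562 and 0.701 p53-CPT peaks per 100 kb, against 0.341 over all genes. Their median windows were 39.4 and 34.5 kb, against 47.2 kb, and neither measure was adjusted for window length. ATF3-CPT peaks were listed at 25 of 26 and 13 of 13, beside 81.0%. Their density was 6.66 per 100 kb on the pro-apoptotic and 5.75 on the anti-apoptotic side, and that of ATF3-Ctrl peaks 3.21 and 2.8. The higher ATF3 density of the 2 anti-apoptotic members was thus not seen in the wider list. Within 2 kb of the start, p53-CPT peak centres were listed at 3 of 26 (11.5%) pro-apoptotic and 3 of 13 (23.1%) anti-apoptotic wider genes. Both shares were above the 2.89% of protein-coding genes. Near the start, the share in the wider list was thus not higher on the pro-apoptotic side, unlike the 8 of 8 and 0 of 2 among the members. The wider list left out the members, and most of the pro-apoptotic members are known p53 targets. It therefore cannot show whether the members' contrast holds for apoptosis genes in general. Shares over both lists together were not tested.

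The 7 wider pro-apoptotic genes with p53-CPT peaks included PHLDA3, an AKT inhibitor, with 167.2 units (125.2 to 218.7) at 90 bp. FADD, the death receptor adaptor, had 88.3 units at -6899 bp, where p53-KO was also listed, and PIDD1, a death domain protein, had 78.9 units at 5338 bp. TP53INP1 had 50.5 units, HRK 44.2, BIK 34.7 and APAF1, the core of the apoptosome, 28.4. PHLDA3, TP53INP1 and FADD shared their site with ATF3-CPT.

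Among the wider anti-apoptotic genes, TRIAP1, an inhibitor of apoptosome activation, had the tallest p53-CPT peak of either list, 460.6 units (388.9 to 541.7) at 20 bp. The ATF3 site it overlapped had 274.2 units (246.4 to 304.2) in ATF3-Ctrl, 205.7 units (183.7 to 229.6) in ATF3-CPT and 86.6 units (71.2 to 104.3) in ATF3-KO. The decoy TRAIL receptors TNFRSF10C and TNFRSF10D had 53.6 units at 324 bp and 50.5 units at 373 bp. TNFRSF10C had a further peak of 28.4 units at -9307 bp, and BCL2 one of 44.2 units, and both of these overlapped a p53-KO peak.

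By summed ATF3-CPT signal the leading wider genes were CASP9 (213.4 units), CASP8 (142.4), TNFRSF1A (133.3) and PIDD1 (107.4) on the pro-apoptotic side. On the other side they were TRIAP1 (205.7), CFLAR (176.6), BCL2 (128.7) and BIRC2 (104.8). None of these reached the 525.4 units of BBC3 or the 314.5 units of BCL2L1. TRIAP1 and CASP9 had 274.2 and 217.8 units in ATF3-Ctrl, at or above their ATF3-CPT sums. ATF3-KO peaks were listed in the windows of TRIAP1 (86.6 units), PIDD1 (21.1) and CASP9 (10.1) and of none of the other 5.

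**Figure D4:**
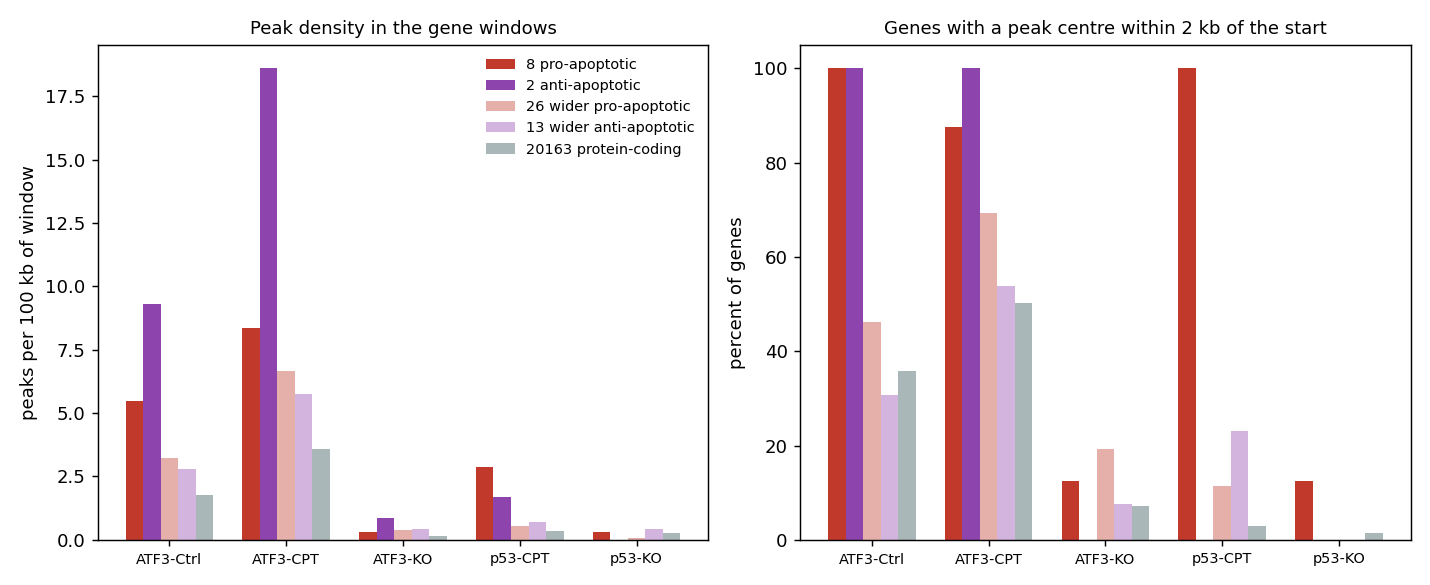
Peaks per 100 kb of window (left, y axis) and percent of genes with a peak centre within 2 kb of the gene start (right, y axis) in each library for the 8 pro-apoptotic and 2 anti-apoptotic genes, the wider lists of 26 and 13 genes and all 20163 protein-coding genes. ATF3-CPT density is 8.35 in the 8 pro-apoptotic and 18.6 in the 2 anti-apoptotic windows, but 6.66 and 5.75 in the wider lists. p53-CPT peaks near the start are at 8 of 8 and 0 of 2 genes. The wider lists hold none of these 8 and 2 genes.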

How the data were processed

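The authors aligned ChIP-seq reads with BWA 0.6.1 to hg19 and called peaks with HOMER 4.1, per the submitters' processing notes and the file headers (FDR 0.001, at least 4-fold over the surrounding 10 kb). The deposited columns used were the normalized tag count (a signal per 10000000 tags), the findPeaks score and the fold over the local region. The score rests on tags at no more than 1 per position and is not scaled to library size. It exceeded the tags at some peaks. The fold is a ratio that the authors used as a filter, and it entered no test. Peaks were called per library, each 1 sample, and no knockout library was used as a control in calling.

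Here, tags were recovered from the normalized tag count and the library total. Gene ends came from GENCODE 44 mapped to GRCh37. Sharing meant an overlap of 1 bp or more. Tests were exact binomial tests (scipy 1.17.1) over all shared sites, tested first on simulated data in which tags were independent. Sequences were read from GRCh37 with pysam 0.24.0. The genes and lists were chosen with earlier results of these data known. Named were all 10 genes, with every p53 and knockout peak, their tallest ATF3 peaks and those near a gene start, and, of the wider list, genes with a p53-CPT peak and the 4 per side with the largest summed ATF3-CPT signal.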

Additional observations from a re-analysis of the deposited data

How the results depend on the processing

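No paired analysis was possible because each group has 1 library. Of the alternatives, a score of at least 20 in every list changed the counts most: ATF3-Ctrl then had peaks at 6 genes (10 peaks), ATF3-CPT had 20 peaks, p53-CPT had peaks at 5 genes (6 peaks; 4 of the pro-apoptotic genes), ATF3-KO and p53-KO had 0 genes and 0 peaks, and 9 shared ATF3 sites remained to test. The genes without a p53-CPT peak at that score were FAS, PMAIP1, TNFRSF10A and TP53I3. A window from 50 kb upstream gave 45 ATF3-Ctrl peaks, and p53-KO peaks at 2 genes (3 peaks). Scaling to the median change of all shared sites left 3 sites higher and 2 lower, and turned the direction at TNFRSF10B (-0.42 at -5774 bp and -0.27 at -90 bp), BBC3 (-0.59 at -11540 bp), AEN (-0.37 at -6729 bp), BCL2L1 (-0.66 at -7 bp), MCL1 (-0.52 at 17775 bp and -0.30 at 11424 bp) and PMAIP1 (-0.73 at -18162 bp), all on the log2 scale. With the score in place of tags, TNFRSF10B at -5774 bp was no longer called (0.18). The other 98 of 114 recomputed counts stayed within 1.5 times of the reported ones. Overlaps of p53-CPT with ATF3-CPT numbered 2 instead of 3 with an overlap of at least 50% of the narrower peak, with a score of at least 20, and with knockout peaks removed. Canonical transcript ends moved the ATF3-CPT density of MCL1 from 20.6 to 12 peaks per 100 kb. Without peaks that overlapped a knockout peak, ATF3 was listed at 9 genes and p53-CPT at 8. The shares of all protein-coding gene windows were not recomputed under this filter, which removes 60.91% of all p53-CPT peaks. Ends of the canonical transcripts and the changed ATF/CRE word were chosen after seeing the data.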
